A study of Homo sapiens with 12 samples.

Results

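The genes described here are 10 genes of eicosanoid synthesis and signalling, out of 59251 listed in the count table of an RNA-Seq experiment on HL-60 cells, a human leukemia line of promyelocyte-like cells. They are PLA2G4A, PTGS1, PTGS2, PTGES, PTGER2, PTGER4, ALOX5, ALOX5AP, LTA4H and LTC4S, picked by name as a pathway with earlier results of these libraries in view, so that their values are given as a description without tests. One group was left non-treated. The others received all-trans retinoic acid (ATRA, 1 µM), palbociclib, which inhibits CDK4/6 (CDK4/6i, 1 µM), or the pair together at these doses (CDK4/6i+ATRA), each for 48 h, and every group has 3 libraries, 12 in all. The comparisons ask how each drug alone and the combination change mRNA levels relative to non-treated cells, in 1 cell line, with libraries that the labels call biological replicates.

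Eicosanoids are lipid mediators made from arachidonic acid. Cytosolic phospholipase A2, encoded by PLA2G4A, releases the fatty acid from membrane phospholipids, after which the pathway divides. In the prostaglandin branch, the cyclooxygenases PTGS1 (COX-1) and PTGS2 (COX-2) make prostaglandin H2, the microsomal prostaglandin E synthase PTGES turns it into prostaglandin E2, and the receptors PTGER2 and PTGER4 pass that signal to cyclic AMP. In the leukotriene branch, 5-lipoxygenase (ALOX5) works with its membrane partner ALOX5AP (FLAP) to make leukotriene A4, which LTA4H converts to leukotriene B4, a neutrophil attractant, and LTC4S to leukotriene C4, a product typical of mast cells and eosinophils.

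The stretch before the start site is shown for 4 genes, PTGES, ALOX5AP and PTGS1, which were highest with CDK4/6i+ATRA, and LTC4S, which was highest with CDK4/6i alone. Each sequence holds the 250 bases before the RefSeq start on GRCh38.p14, 5′ to 3′ on the strand of the gene. The windows were chr9:129753043-129753292 (minus strand) for PTGES, chr13:30713235-30713484 (plus strand) for ALOX5AP, chr9:122370283-122370532 (plus strand) for PTGS1 and chr5:179793736-179793985 (plus strand) for LTC4S. Capitals mark letters that match a motif on either strand.
PTGES: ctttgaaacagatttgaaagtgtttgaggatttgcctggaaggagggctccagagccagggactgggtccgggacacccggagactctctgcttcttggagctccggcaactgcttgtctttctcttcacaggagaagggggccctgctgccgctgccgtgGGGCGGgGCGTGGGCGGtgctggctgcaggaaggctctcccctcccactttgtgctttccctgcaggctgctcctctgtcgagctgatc
ALOX5AP: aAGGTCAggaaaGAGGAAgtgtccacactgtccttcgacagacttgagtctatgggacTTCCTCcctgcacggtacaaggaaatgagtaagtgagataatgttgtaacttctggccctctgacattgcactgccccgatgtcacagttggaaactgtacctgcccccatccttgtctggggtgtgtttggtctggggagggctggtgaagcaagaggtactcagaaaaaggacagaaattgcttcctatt
PTGS1: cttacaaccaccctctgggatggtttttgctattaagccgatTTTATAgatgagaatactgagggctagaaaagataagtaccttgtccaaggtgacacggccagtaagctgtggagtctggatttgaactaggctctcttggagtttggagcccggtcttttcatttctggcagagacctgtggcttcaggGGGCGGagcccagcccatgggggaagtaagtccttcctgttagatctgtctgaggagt
LTC4S: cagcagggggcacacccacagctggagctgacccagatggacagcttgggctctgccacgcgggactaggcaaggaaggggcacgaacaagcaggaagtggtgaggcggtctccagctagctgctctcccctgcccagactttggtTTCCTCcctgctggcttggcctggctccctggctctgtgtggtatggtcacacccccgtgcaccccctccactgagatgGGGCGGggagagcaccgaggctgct

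Both strands were searched for 7 motifs. The GC box was taken as the letters GGGCGG, the TATA box as the letters TATAAA and the core of a cyclic AMP response element (CRE) as the letters TGACGT. The E-box was taken as the letters CACGTG, the core of a PU.1 site as the letters GAGGAA, the half-site of a nuclear receptor as the letters AGGTCA and the core of an EGR site as the letters GCGTGGG. The PTGES window held 2 GC boxes, whose first letters lie 89 and 78 bases before the start, and an EGR core at 82 bases that overlaps the second of them. The ALOX5AP window held no GC box, but 2 PU.1 cores, at 238 bases and on the opposite strand at 192 bases, and a nuclear receptor half-site at 249 bases. In the PTGS1 window were a GC box at 58 bases and a TATA box on the opposite strand at 208 bases, and in that of LTC4S a GC box at 25 bases and a PU.1 core on the opposite strand at 104 bases. Among 35116 RefSeq promoter windows of the same length, 42.6% held a GC box and 24.3% held 2 or more. A PU.1 core was held by 23.6%, and 2 or more by 3.49%. A nuclear receptor half-site was in 12.1%, a TATA box in 10.7%, a CRE core in 7.10%, an E-box in 6.34% and an EGR core in 6.19%. The windows of PTGS2, with a TATA box 32 bases before its start, PTGER4, with 4 GC boxes, and PTGER2, with 2 GC boxes, were also searched, and those of PLA2G4A and LTA4H held none of these letters. The LTA4H window lies before a RefSeq start at 96035587, inside the gene as the count table gives it, and the stretch before the start in that table was not searched. RefSeq windows were matched for 9 of the 10 genes, and ALOX5 was not matched. PTGS1 had an additional window before a second start at 122375302, which held a GC box on the opposite strand at 202 bases.

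Levels are given as CPM, the counts of a gene relative to those of its library, after TMM normalization, with libraries set on a common scale. Total counts ranged from 12230923 to 14415276 with CDK4/6i+ATRA and from 15238994 to 18679544 in the other groups, and 3 counts, taken here as the floor of detection, corresponded to 0.156 to 0.275 CPM. TMM factors were 0.840 to 0.893 with CDK4/6i+ATRA and 1.03 to 1.07 elsewhere. When libraries were scaled by size alone, the median log2 difference of all tested genes between CDK4/6i+ATRA and non-treated cells went from 0.02 to -0.25. In these bulk libraries, fewer cells expressing a gene and less RNA per cell cannot be told apart. The myeloid marker MPO was at 6517 ± 168 CPM in non-treated cells (mean ± SD, n = 3), while ELANE, PRTN3 and AZU1, which promyelocytes also express, had no count in any library. Those genes are listed in the table on an alternate contig of the genome as well as on their chromosome, as described for ALOX5. Summed over all 8 promyelocyte and myeloid markers, levels were 6921 to 7244 CPM in non-treated cells and 1216 to 1267 with ATRA. They were 4097 to 4217 with CDK4/6i and 1239 to 1295 with both. The markers did not move together. MPO fell to 292.8 CPM with ATRA and 27.96 with both, and CTSG from 13.96 to 0.6231 and 0.6384. SPI1 rose from 301.8 CPM in non-treated cells to 463.4 with ATRA and 855.1 with both. CEBPE rose from 169.5 to 409.7 and 284.5, and CD33 was at 93.91, 77.87 and 99.8 CPM in these groups. The part of these markers in the differences of the eicosanoid genes was not tested. Summed markers of the retinoid response (CD38, ITGAM, TGM2, DHRS3, RARB and CYP26A1) lay between 9.26 and 25.9 CPM without ATRA and between 2731 and 3106 CPM with it. Most of the sum with ATRA was TGM2, at 2024 CPM with ATRA and 1884 CPM with both drugs. RARB did not follow the sum, at 0.35 CPM in non-treated cells, 0.34 with ATRA and 0.27 with both, and CYP26A1 had at most 2 counts in any library.

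The filter for low counts kept 13318 genes, among them 8 of the 10. PTGS2 and ALOX5 were left out, and PTGES was kept through the groups in which it is high. Relative to non-treated cells, 3 of the genes were at least 2-fold higher and 2 at least 2-fold lower with ATRA, against 13.3% and 9.03% of all tested genes. With CDK4/6i, 1 gene was at least 2-fold higher and 0 were lower (7 genes above the floor), where the shares of all tested genes were 6.70% and 6.07%. With CDK4/6i+ATRA, 5 were at least 2-fold higher and 2 lower, beside 22.4% and 23.6% of all tested genes. These counts describe genes that were picked with the results in view and are not read as a result about the pathway.

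**Figure D1:**
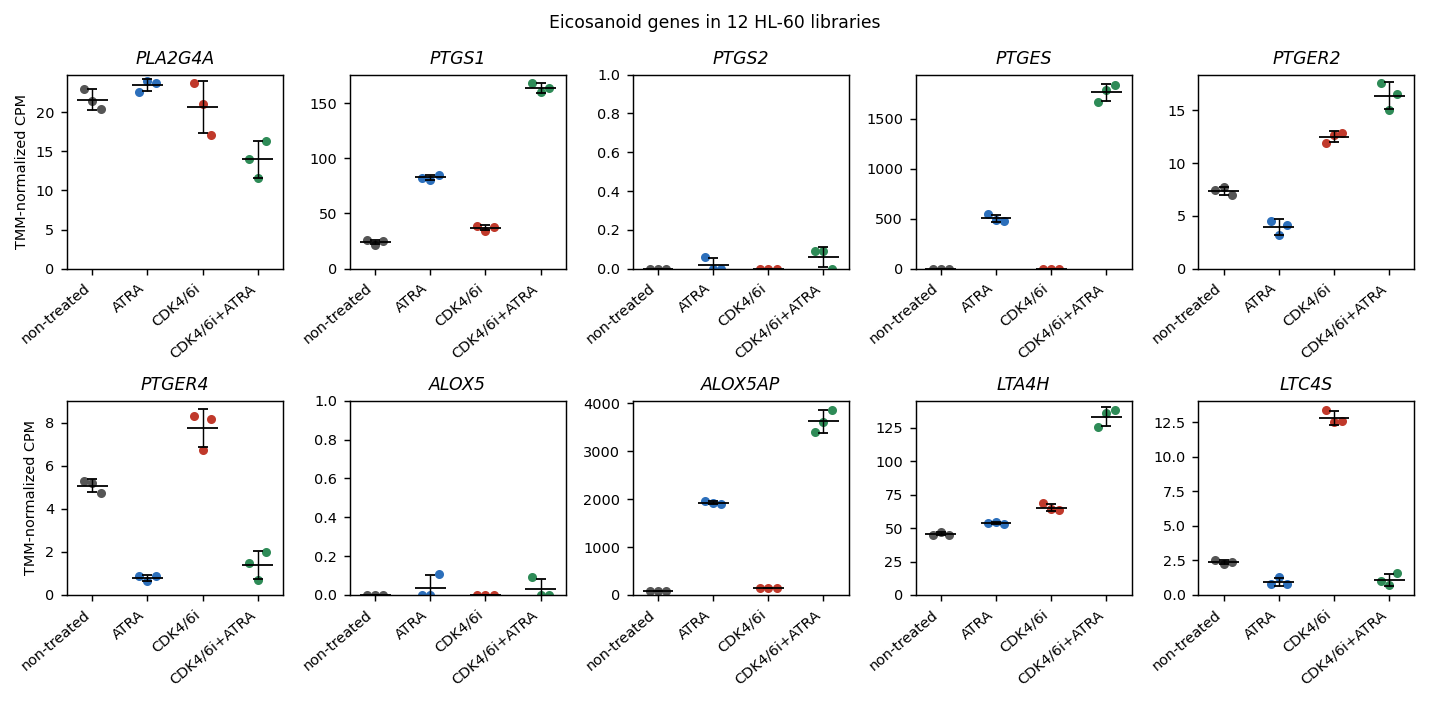
TMM-normalized CPM of the 10 eicosanoid genes in each of the 12 libraries, by treatment group, with a linear axis of its own for each gene. Points are libraries, horizontal lines are means of 3 libraries and bars are SDs. PTGES is at or near 0 without ATRA, between 480 and 543 CPM with ATRA and between 1667 and 1836 CPM with CDK4/6i+ATRA, while LTC4S and PTGER4 are highest with CDK4/6i alone.

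PLA2G4A (chromosome 1, 186828949-186988981, plus strand, hg38) was the only one of the 8 genes that was lowest with CDK4/6i+ATRA. Its level was 23.0, 21.5 and 20.4 CPM in the non-treated libraries, 22.6, 24.0 and 23.8 CPM with ATRA, 23.7, 21.0 and 17.1 CPM with CDK4/6i and 14.0, 11.6 and 16.3 CPM with CDK4/6i+ATRA. The ATRA and CDK4/6i libraries overlapped the non-treated ones, and the 3 CDK4/6i+ATRA libraries lay below all others. With library size alone, the ATRA libraries (24.1 to 25.6 CPM) lay above the non-treated ones (21.4 to 23.5 CPM). The log2 difference from non-treated cells was 0.12 ± 0.09 (estimate ± SE, n = 3 libraries per group) for ATRA, -0.06 ± 0.09 for CDK4/6i and -0.62 ± 0.11 with the combination. The combination stood 0.68 ± 0.14 below the sum of the single-drug log2 differences, a quantity called the interaction in what follows (-0.68).

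PTGES (chromosome 9, 129738349-129753042, minus strand, 3 exons) had at most 1 count in any library without ATRA and at least 8422 in every library with it. Its raw counts were 1, 0 and 0 in the non-treated libraries, 8813, 8422 and 8697 with ATRA, 0, 0 and 0 with CDK4/6i and 18187, 19984 and 22221 with CDK4/6i+ATRA. In CPM, the ATRA libraries stood at 543, 491 and 480 and the CDK4/6i+ATRA libraries at 1667, 1781 and 1836. No library without ATRA passed the floor, and no CDK4/6i+ATRA library overlapped an ATRA library.

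With ATRA, 25932 PTGES counts stood against 1 count in non-treated cells, itself under the floor, a ratio of 25359 after scaling for depth, with a 95% exact interval of 4551 to 1001682 that covers counting error only. For CDK4/6i+ATRA, 60392 counts stood against that same count, a ratio of 88820 with an interval of 15941 to 3508276. Set against a floor of 3 counts per library in the CDK4/6i group, where PTGES had 0 counts, the level with CDK4/6i+ATRA was at least 10272-fold higher. CDK4/6i alone gave no detectable PTGES at this depth, whereas CDK4/6i on top of ATRA went with a 3.49-fold higher level than ATRA alone (log2 difference 1.80 ± 0.04). That difference was 1.5 when libraries were scaled by size alone. No interaction is given for PTGES, because 2 of its groups are at the floor.

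Ranked by CPM among all listed genes, PTGES was the 255th with ATRA and the 85th with CDK4/6i+ATRA. Of 42259 genes with at most 3 counts in each non-treated and each CDK4/6i library, 7 exceeded 100 CPM with CDK4/6i+ATRA, and PTGES had the 2nd highest mean among them. The 3 genes whose pattern over the 12 libraries was most like that of PTGES, by Pearson's r of log2(CPM + 1) among 9294 candidates, were SELP (r = 0.9996), EPAS1 (r = 0.9994) and ARRB2 (r = 0.9993). The libraries fall into 4 treatment groups, so that r mostly compares group levels. SELP, which encodes P-selectin, went from 0.04 CPM in non-treated cells to 57.2 CPM with ATRA and 148.7 CPM with CDK4/6i+ATRA. EPAS1, encoding HIF-2 alpha, had 32.1 CPM with ATRA and 63.4 CPM with both drugs, and ARRB2, encoding beta-arrestin 2, was already at 86.7 CPM in non-treated cells.

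PTGS1 (chromosome 9, 122370533-122395703, plus strand), the constitutive cyclooxygenase, was the cyclooxygenase detected in all groups. Its libraries measured 25.5, 21.9 and 25.0 CPM without treatment, 82.3, 80.5 and 85.1 CPM with ATRA, 38.9, 34.5 and 37.4 CPM with CDK4/6i and 168.5, 159.6 and 163.9 CPM with CDK4/6i+ATRA. No groups overlapped, in the order CDK4/6i+ATRA, ATRA, CDK4/6i and non-treated. Against non-treated cells the level was 3.42-fold higher with ATRA (log2 1.77 ± 0.06), 1.53-fold with CDK4/6i (0.61 ± 0.06) and 6.79-fold with both (2.76 ± 0.06). The interaction was 0.37 ± 0.08, and 0.06 with library size alone.

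PTGS2 (chromosome 1, 186671791-186680423, minus strand), the inducible cyclooxygenase, had 3 counts in all 12 libraries together. They were 1 count in ATRA library 1 and 1 count in each of CDK4/6i+ATRA libraries 1 and 2, all under the floor. At this depth PTGS2 mRNA was not detectable in any group, and no fold is given. Its exons are listed on the primary chromosome alone.

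PTGER2 (chromosome 14, 52314312-52328598, plus strand) and PTGER4 (chromosome 5, 40679915-40746800, plus strand) encode the prostaglandin E2 receptors EP2 and EP4, and their groups came in different orders. PTGER2 was at 7.45, 7.71 and 6.98 CPM in non-treated cells, 4.56, 3.15 and 4.14 CPM with ATRA, 11.9, 12.7 and 12.9 CPM with CDK4/6i and 17.6, 15.1 and 16.5 CPM with CDK4/6i+ATRA. No 2 groups overlapped, with ATRA lowest and CDK4/6i+ATRA highest. The log2 difference from non-treated cells was -0.90 ± 0.14 for ATRA, 0.76 ± 0.12 for CDK4/6i and 1.15 ± 0.12 with both drugs. ATRA thus stood below its control when given alone and 0.39 ± 0.11 above it when CDK4/6i was present, an interaction of 1.29 ± 0.18. With library size alone, the CDK4/6i+ATRA libraries (12.9 to 15.7 CPM) overlapped those of CDK4/6i (12.3 to 13.6 CPM), the interaction was 0.97 and the difference between both drugs and no treatment 0.89.

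PTGER4 stood at 5.29, 5.2 and 4.73 CPM in non-treated cells, 0.86, 0.64 and 0.88 CPM with ATRA, 8.30, 6.72 and 8.19 CPM with CDK4/6i and 1.47, 0.71 and 1.98 CPM with CDK4/6i+ATRA. The 6 libraries with ATRA lay below the others, and the ATRA and CDK4/6i+ATRA groups overlapped, on 8 to 24 counts per library. PTGER4 was 6.31-fold lower with ATRA (log2 -2.66 ± 0.25), 1.53-fold higher with CDK4/6i (0.61 ± 0.17) and 3.60-fold lower with both (-1.85 ± 0.24). The interaction, 0.20 ± 0.38, was smaller than its SE and had the opposite sign with library size alone (-0.12). Per kilobase of exon, PTGER2 exceeded PTGER4 6.28-fold in non-treated cells (range over libraries 6.08 to 6.39), 21.4-fold under ATRA (20.2 to 22.8), 7.04-fold with CDK4/6i (6.20 to 8.15) and 59.6-fold with the combination (35.9 to 91.1). These ratios depend on the lengths used, 2458 bases for PTGER2 and 10600 bases over all listed exons for PTGER4. In CPM the means of PTGER2 and PTGER4 were 7.38 and 5.08 in non-treated cells and 16.4 and 1.39 with the combination. PTGER4 shares 3 bases with TTC33 on the opposite strand.

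ALOX5AP (chromosome 13, 30713485-30764426, plus strand) encodes the membrane protein that presents arachidonic acid to 5-lipoxygenase. Among the 8 genes that passed the filter it was the most abundant in every group, in CPM per kilobase as in CPM. The level was 90.1, 84.5 and 84.8 CPM in non-treated cells, 1973, 1911 and 1904 CPM with ATRA, 151.9, 151.9 and 149.8 CPM with CDK4/6i and 3395, 3616 and 3865 CPM with CDK4/6i+ATRA. None of the 4 groups overlapped. Relative expression was 22.3-fold with ATRA (log2 4.48 ± 0.05), 1.75-fold with CDK4/6i (0.81 ± 0.05) and 41.9-fold with the combination (5.39 ± 0.05). The interaction was 0.10 ± 0.07, and -0.22 with library size alone, so that its sign depends on the scaling. ALOX5AP moved from the 2546th to the 36th rank by CPM with ATRA and to the 30th with both drugs.

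ALOX5 (chromosome 10, 45374216-45446117, plus strand), the lipoxygenase that ALOX5AP serves, had 3 counts in all, 2 in ATRA library 3 and 1 in CDK4/6i+ATRA library 1. The table lists its 14 exons on chromosome 10 and 14 further exons on an alternate contig. Of 950 protein-coding genes listed on a primary chromosome and an alternate contig, 59.4% had 3 counts or fewer in total (median 0), against 29.8% of the 17988 listed on a primary chromosome alone (median 432). MARCHF8, listed on the same alternate contig as ALOX5, had 850 counts. How far this listing lowered the ALOX5 counts was not tested, so the values give no level for ALOX5 mRNA in these cells.

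LTA4H (chromosome 12, 96000753-96043520, minus strand), leukotriene A4 hydrolase, differed by smaller folds. Its libraries measured 45.1, 47.5 and 45.2 CPM without treatment, 53.9, 54.6 and 53.1 CPM with ATRA, 68.7, 64.2 and 63.3 CPM with CDK4/6i and 125.4, 136.2 and 138.6 CPM with CDK4/6i+ATRA. No groups overlapped, and the order was CDK4/6i+ATRA, CDK4/6i, ATRA and non-treated. The level was 1.17-fold higher with ATRA (log2 0.23 ± 0.05), 1.43-fold with CDK4/6i (0.51 ± 0.05) and 2.91-fold with both (1.54 ± 0.05). The interaction of 0.80 ± 0.07 was 0.48 with library size alone. LTA4H shares 46 bases with LOC102723340 on the opposite strand, which had 85 counts in all libraries against 13111 for LTA4H.

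LTC4S (chromosome 5, 179793986-179796647, plus strand), leukotriene C4 synthase, went the other way with the combination. Its level was 2.52, 2.26 and 2.37 CPM in non-treated cells, 0.80, 1.28 and 0.77 CPM with ATRA, 13.4, 12.5 and 12.6 CPM with CDK4/6i and 1.01, 0.71 and 1.57 CPM with CDK4/6i+ATRA. The 3 CDK4/6i libraries lay above all others, and the ATRA and CDK4/6i+ATRA libraries overlapped below the non-treated ones, on 8 to 22 counts each. LTC4S was 5.38-fold higher with CDK4/6i (log2 2.43 ± 0.17), 2.49-fold lower with ATRA (-1.32 ± 0.26) and 2.14-fold lower with both (-1.10 ± 0.28). From CDK4/6i to CDK4/6i+ATRA the level was 11.5-fold lower, and the interaction was -2.21 ± 0.38.

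The difference between CDK4/6i+ATRA and non-treated cells was -1.47 without CDK4/6i+ATRA replicate 3 and -0.87 without replicate 2. LTC4S is also listed on a fix contig, and its level per kilobase uses the exons on chromosome 5. Of 636 protein-coding genes listed on a primary chromosome and a fix contig but no alternate one, 36% had 3 counts or fewer in total (median 131.5). On a primary chromosome alone it was 29.8% (median 432). How far this listing lowered the LTC4S counts was not tested. Summed markers of mast cells and eosinophils (5 genes, mostly PRG2, with means of TPSAB1, CPA3 and MS4A2 under 2 CPM in every group) were at 5739 to 5997 CPM in non-treated cells, 262 to 301 CPM with ATRA, 7107 to 7318 CPM with CDK4/6i and 61.9 to 72.0 CPM with CDK4/6i+ATRA. This sum was above the non-treated level with CDK4/6i and below it in both groups with ATRA, as LTC4S was. Of the 5 genes, MS4A2 alone had a lower mean with CDK4/6i (0.49 CPM) than in non-treated cells (1.04 CPM). The part of these markers in the LTC4S levels was not tested.

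**Figure D2:**
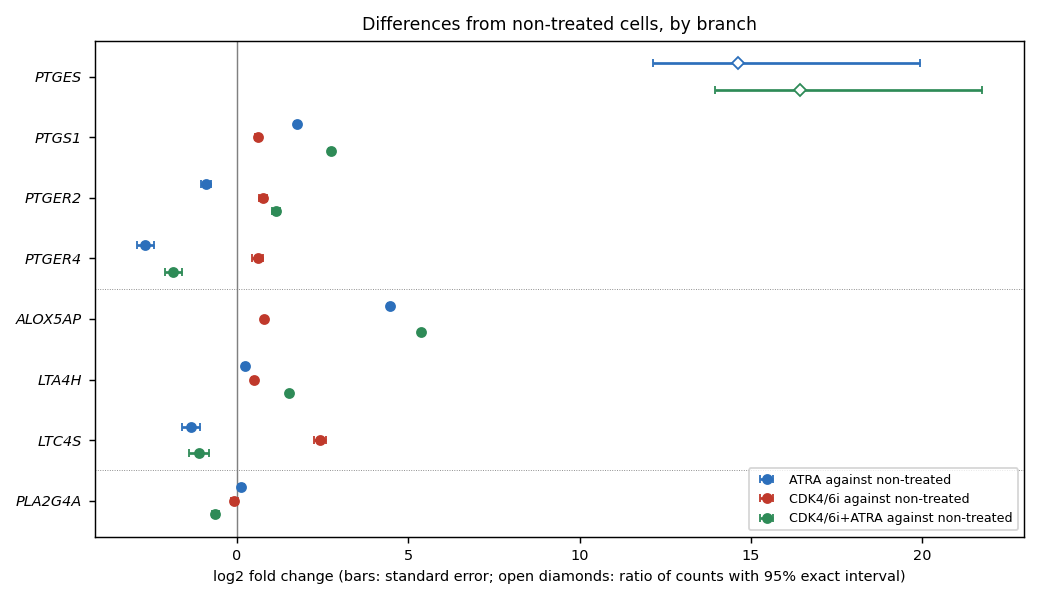
Log2 fold change of each gene against non-treated cells for ATRA (blue), CDK4/6i (red) and CDK4/6i+ATRA (green), for the prostaglandin branch, the leukotriene branch and PLA2G4A, separated by dotted lines. Filled points are edgeR estimates with SE (n = 3 libraries per group) and open diamonds are ratios to the single PTGES count of non-treated cells with 95% exact intervals. PTGES and ALOX5AP lie farthest to the right with ATRA and with CDK4/6i+ATRA, whereas PTGER4 and LTC4S lie below 0 with both and above 0 with CDK4/6i alone.

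Set side by side, the branches each held genes that went up and genes that went down. In the prostaglandin branch the median log2 difference from non-treated cells was 0.44 for ATRA (2 of 4 genes above 0), 0.61 for CDK4/6i (3 of 3) and 1.96 for CDK4/6i+ATRA (3 of 4). PTGES, which passed the filter on low counts through the ATRA groups alone, enters the first and last of these medians but not the second. Over the 3 other tested genes they were -0.90, 0.61 and 1.15, so that the sign for ATRA rests on PTGES. In the leukotriene branch it was 0.23 (2 of 3), 0.81 (3 of 3) and 1.54 (2 of 3), where those over all tested genes were -0.03, 0.02 and 0.02. The largest difference with ATRA was that of PTGES in the prostaglandin branch and that of ALOX5AP in the leukotriene branch. The receptor PTGER4 and the branch-point enzyme LTC4S were lower with ATRA in the presence and in the absence of CDK4/6i.

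Dividing by the summed length of the exons lets mRNA levels of different genes be set against each other, as proportions of transcripts and not of enzymes. PTGES stood 19.9 ± 1.54-fold above PTGS1 with ATRA and 35.0 ± 2.42-fold with CDK4/6i+ATRA, so that the synthase exceeded the cyclooxygenase more with both drugs (32.2 to 36.4) than with ATRA (18.4 to 21.5). ALOX5AP exceeded PTGES 4.78 ± 0.22-fold with ATRA and 2.57 ± 0.05-fold with CDK4/6i+ATRA, and these ranges did not overlap either. The ratio of ALOX5AP to LTA4H was 3.82 in non-treated cells, 72.7 under ATRA, 4.70 under CDK4/6i and 55.1 under both. For ALOX5AP to LTC4S it was 20.7, 1221, 6.73 and 2076 in the same order, the last ranging from 1406 to 2897 over libraries. The limit given above for the fix contig listing of LTC4S applies to these ratios.

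**Figure D3:**
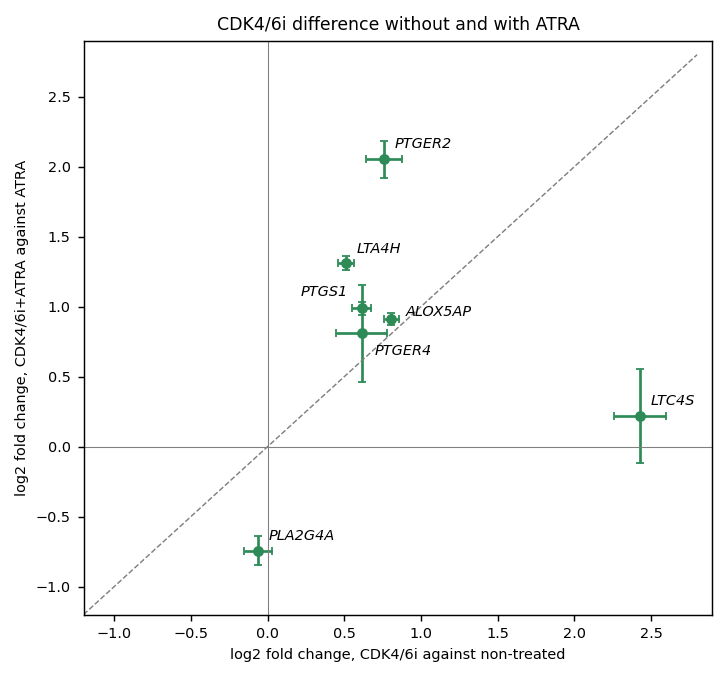
Log2 fold change of CDK4/6i against non-treated cells (horizontal axis) and of CDK4/6i+ATRA against ATRA (vertical axis) for 7 genes with counts above the floor in every group, with SE bars (n = 3 libraries per group). On the dashed line both differences are equal. PTGER2 and LTA4H lie above the line, PLA2G4A and LTC4S below it, and LTC4S goes from 2.43 without ATRA to 0.22 with it.

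Where CDK4/6i was added to ATRA, the log2 difference was 2.05 ± 0.13 for PTGER2, 1.31 ± 0.05 for LTA4H, 0.99 ± 0.05 for PTGS1, 0.91 ± 0.04 for ALOX5AP and 0.81 ± 0.34 for PTGER4. It was 0.22 ± 0.34 for LTC4S, which changed sign with library size alone (-0.09) and without CDK4/6i+ATRA replicate 3 (-0.15). PLA2G4A was lower by this comparison (-0.74 ± 0.11). Where ATRA was added to CDK4/6i, the difference was 4.58 ± 0.05 for ALOX5AP, 2.15 ± 0.05 for PTGS1, 1.03 ± 0.05 for LTA4H, -0.56 ± 0.11 for PLA2G4A and -2.46 ± 0.23 for PTGER4, beside the values of PTGER2 and LTC4S given above. ALOX5AP and PTGS1 were thus higher with ATRA, and PTGER4 and LTC4S lower, whether or not CDK4/6i was present. The comparisons of CDK4/6i+ATRA with ATRA and of ATRA with non-treated cells share the ATRA libraries.

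The other genes of eicosanoid metabolism were taken from 8 lists with 87 genes, of which 48 were tested with edgeR's quasi-likelihood test and Benjamini-Hochberg adjustment over all 13318 genes at a threshold of 0.05. Of the 39 that were not tested, 30 had at most 3 counts in every library and 18 had none, including the prostaglandin D and prostacyclin synthases PTGDS and PTGIS. With ATRA 21 rose and 15 fell (43.8% and 31.2%), where 32.1% and 35.5% of all tested genes did so. With CDK4/6i 18 rose and 11 fell (37.5% and 22.9%, against 28.3% and 27.9%), and with CDK4/6i+ATRA 22 rose and 17 fell (45.8% and 35.4%, against 41.0% and 40.7%). The interaction passed the threshold upwards for 11 and downwards for 20, 22.9% and 41.7% beside 24.5% and 27.0% of all tested genes. With library size alone, 19 rose and 23 fell with CDK4/6i+ATRA, and the interaction passed upwards for 9 and downwards for 27. For 7 of the 48 genes (DAGLA, AKR1C3, TBXA2R, LTB4R2, CYSLTR2, OXER1 and GGT5) at least 1 group had no library past the filter, so that they were tested through the groups in which they are high and had to differ. Without them, 17 of 41 genes rose and 14 fell with ATRA, 16 rose and 11 fell with CDK4/6i, and 17 rose and 16 fell with the combination. The interaction then passed upwards for 10 and downwards for 17. These shares were not tested against the background, and the percentages over all tested genes apply likewise to the counts of each list.

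**Figure D4:**
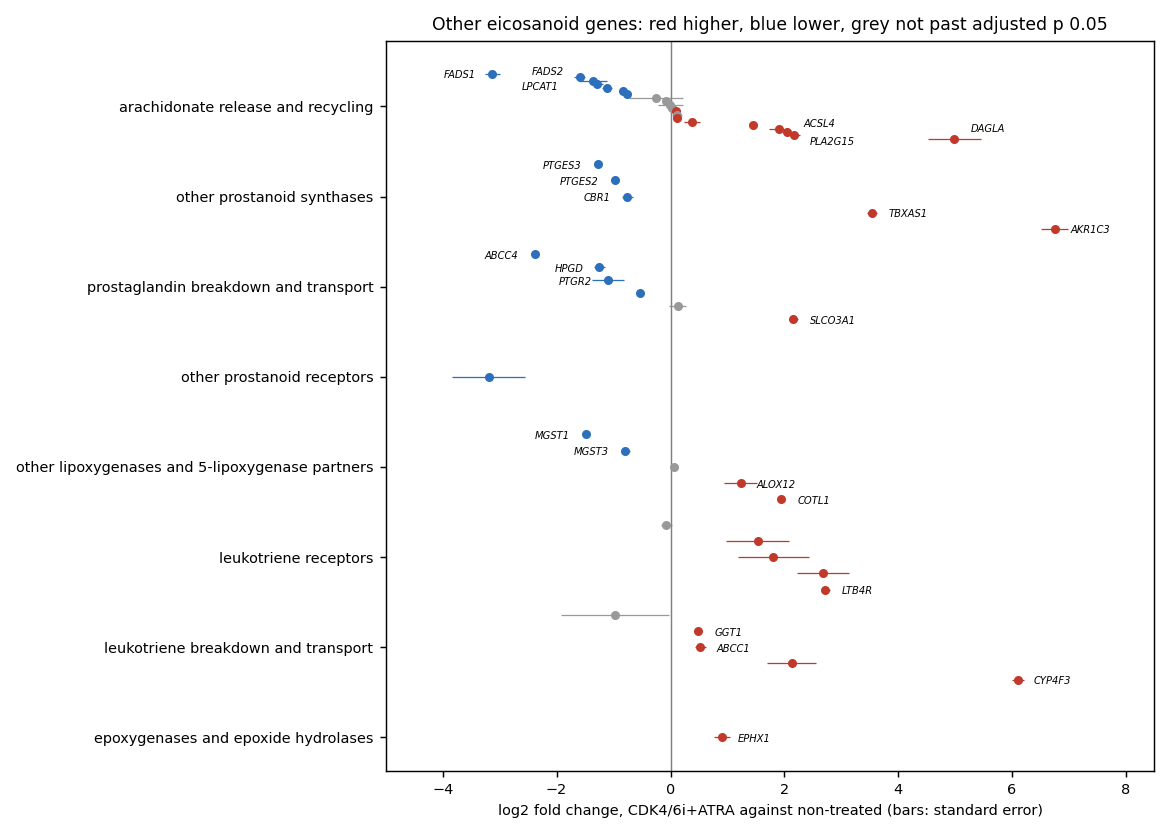
Log2 fold change of CDK4/6i+ATRA against non-treated cells for the 48 tested genes of the other eicosanoid lists, 1 row of points per list, with SE bars (n = 3 libraries per group). Red and blue mark genes that were higher or lower past an adjusted p of 0.05 by edgeR, grey the others, and the genes named by rule carry their symbols. AKR1C3 and CYP4F3 lie farthest to the right, AKR1C3 as an estimate over at most 4 counts per non-treated library, and FADS1 is among those farthest to the left.

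Among 20 tested genes of arachidonate release and recycling, 8 rose and 7 fell with CDK4/6i+ATRA (median log2 difference 0.01). ACSL4, which activates arachidonic acid for storage in phospholipids, rose from 119 ± 5.57 to 492 ± 14.5 CPM (log2 2.05 ± 0.04, edgeR adjusted p = 1.0e-40), and the lysosomal phospholipase PLA2G15 rose from 6.53 to 29.5 CPM (2.17 ± 0.11, edgeR adjusted p = 3.5e-23). DAGLA, a diacylglycerol lipase, had 1 to 4 counts per non-treated library, 1 to 7 with ATRA, 2 to 9 with CDK4/6i and 51 to 73 with both drugs, and is given without a fold because it was tested through the last group alone. FADS1 and FADS2, the desaturases that make arachidonic acid from linoleic acid, fell by 3.13 and 1.59 on the log2 scale with both drugs (edgeR adjusted p = 2.3e-26 and 8.4e-21). With ATRA alone both had risen, to 43.7 CPM from 29.2 CPM for FADS1 and to 99.4 CPM from 48.1 CPM for FADS2, and with CDK4/6i alone both had fallen, to 9.67 and 22.6 CPM. LPCAT1, an acyltransferase also listed on an alternate contig, fell by 1.37 (edgeR adjusted p = 2.3e-06).

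Of the 5 tested prostanoid synthases outside the 10 genes, 2 rose and 3 fell with CDK4/6i+ATRA. The other prostaglandin E synthases went opposite to PTGES. PTGES2 fell from 78.8 ± 2.61 to 39.8 ± 4.25 CPM (log2 -0.98 ± 0.06, edgeR adjusted p = 9.9e-21) and PTGES3, the cochaperone p23, from 617 ± 16.3 to 254 ± 8.30 CPM (-1.28 ± 0.04, edgeR adjusted p = 4.3e-33). Thromboxane synthase, TBXAS1, rose from 5.72 ± 0.25 CPM to 20.5 ± 1.63 with ATRA, 11.6 ± 0.75 with CDK4/6i and 66.7 ± 3.33 with both (log2 3.54 ± 0.09, edgeR adjusted p = 2.0e-36). AKR1C3, a prostaglandin F synthase with close relatives in the genome among which reads may be split, had 2 to 4 counts per non-treated library, 350 to 402 with ATRA, 4 to 12 with CDK4/6i and 203 to 266 with both, and no fold is given because the non-treated libraries lie about the floor. CBR1, a carbonyl reductase, fell by 0.76 on the log2 scale (edgeR adjusted p = 1.3e-09).

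Prostaglandin breakdown and transport had 6 tested genes, of which 1 rose and 4 fell with CDK4/6i+ATRA. HPGD, the dehydrogenase that starts the inactivation of prostaglandin E2, was at 21.5 ± 0.25 CPM in non-treated cells, 4.04 ± 0.58 under ATRA, 89.2 ± 2.14 with CDK4/6i and 8.996 ± 0.88 with the combination. It rose with CDK4/6i (log2 2.05 ± 0.06, edgeR adjusted p = 1.1e-31) and fell with ATRA (-2.41 ± 0.10, edgeR adjusted p = 2.8e-26) and with both (-1.25 ± 0.10, edgeR adjusted p = 1.1e-16). The level was thus highest with CDK4/6i and lower than in non-treated cells in both groups with ATRA. The same order held for LTC4S against non-treated cells and for the summed mast cell and eosinophil markers given above, which are mostly PRG2. The part of those markers in the HPGD level was not tested. ABCC4, an exporter of prostaglandins, fell from 112 ± 3.91 to 36.5 ± 0.99 CPM with ATRA and 21.4 ± 1.39 CPM with both (-2.39 ± 0.06, edgeR adjusted p = 1.3e-36), while the organic anion transporter SLCO3A1 rose from 13.7 to 61.0 CPM (2.16 ± 0.08, edgeR adjusted p = 5.6e-30). PTGR2, a reductase of prostaglandin metabolites, fell by 1.10 on the log2 scale (edgeR adjusted p = 0.00033). Of the prostanoid receptors other than PTGER2 and PTGER4, the thromboxane receptor TBXA2R was the only 1 of 7 tested, and it is named although its mean was under 1 CPM. It had 18 to 21 counts per non-treated library, 1 to 3 with ATRA, 11 to 15 with CDK4/6i and 0 to 2 with both, so that every library with ATRA was at or under the floor and no fold is given.

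The receptors of leukotrienes and related lipids were all tested. With ATRA 5 of 5 rose (median log2 difference 2.13), with CDK4/6i 1 rose and 1 fell, and with CDK4/6i+ATRA 4 of 5 rose (median 1.80), where 32.1% of all tested genes rose with ATRA, 28.3% rose and 27.9% fell with CDK4/6i, and 41.0% rose with the combination. LTB4R2, CYSLTR2 and OXER1 had 1 to 6 counts per non-treated library and were tested through groups with ATRA, so that the 5 of 5 and the medians are not to be read against that background. LTB4R, the high-affinity leukotriene B4 receptor, was at 14.1 ± 1.97 CPM in non-treated cells, 131.6 ± 4.12 under ATRA, 7.90 ± 1.37 with CDK4/6i and 93.4 ± 4.72 with both (log2 2.72 ± 0.07 for the combination, edgeR adjusted p = 2.0e-35), and it is also listed on a fix contig. LTB4R2, CYSLTR2 and OXER1 had means under 2 CPM in every group. CYSLTR1, a cysteinyl leukotriene receptor, rose with ATRA (0.66 ± 0.09, edgeR adjusted p = 2.2e-09) and was at -0.07 ± 0.10 with both drugs (edgeR adjusted p = 0.50).

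Leukotriene breakdown and transport had 5 tested genes, of which 4 rose and 0 fell with CDK4/6i+ATRA. CYP4F3, the hydroxylase that inactivates leukotriene B4, rose from 1.33 ± 0.10 CPM to 78.5 ± 4.74 with ATRA and 91.7 ± 4.6 with both (log2 6.10 ± 0.10, edgeR adjusted p = 1.0e-43), and its close relative CYP4F2 had at most 9 counts in any library. GGT1 and ABCC1, which process and export leukotriene C4, rose by 0.48 (edgeR adjusted p = 5.6e-13) and 0.53 (edgeR adjusted p = 9.0e-07), and ABCC1 is also listed on an alternate contig. Of 5 tested lipoxygenases and partners, COTL1, which binds 5-lipoxygenase, rose from 434 to 1666 CPM (1.94 ± 0.04, edgeR adjusted p = 8.6e-39) and ALOX12, the platelet-type 12-lipoxygenase, by 1.23 ± 0.29 (edgeR adjusted p = 0.00015). Summed over 5 markers of megakaryocytes and platelets, levels were 1.68 to 3.04 CPM in non-treated cells, 3.37 to 3.73 with ATRA, 7.26 to 9.23 with CDK4/6i and 8.65 to 10.7 with both. Most of this sum was ITGA2B, while PF4 had no count in any library, and their part in the ALOX12 difference was not tested. The glutathione transferases MGST1 and MGST3 fell by 1.49 and 0.79 (edgeR adjusted p = 2.9e-30 and 1.0e-11), and MGST2, which also makes leukotriene C4, was at 0.07 ± 0.07 (edgeR adjusted p = 0.34). EPHX1, the only tested gene of the epoxide list, rose by 0.90 ± 0.14 (edgeR adjusted p = 1.6e-07).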

How the data were processed

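RNA-Seq of HL-60 cells gave 12 libraries, 3 in each of 4 groups taken from the sample labels. Per the labels and the study's methods, the authors trimmed reads with Trimmomatic 0.33, aligned them to hg38 with STAR 2.7.11a, using genes of NCBI RefSeq. The deposited values are raw counts per gene, whole numbers without normalization. RSEM is named for counting, whereas the table has the layout of featureCounts. Whether strand was used is not given in the sources used here.

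In R 4.3.3, edgeR 4.0.16 filtered the counts (filterByExpr, 4 groups), normalized them by TMM and fitted the group means. Its quasi-likelihood F test (8 residual degrees of freedom) was adjusted by Benjamini-Hochberg over 13318 genes. Biological variation between libraries of a group was 3.7% (common coefficient). Within groups, chi-square values per degree of freedom of 1.85 to 6.81 showed no library deposited more than once.

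The 10 genes and the lists were chosen with earlier results of these data known. Beyond the 10, the genes named are, per list, the 3 that rose most and the 3 that fell most with CDK4/6i+ATRA, past the threshold and with a mean of at least 1 CPM, and the 3 genes of at least 5 CPM most like PTGES. PTGS2 and ALOX5 were not tested, so none were named for them. Further genes were picked with their values in view. Levels per kilobase divide CPM by the length of the exons on the primary chromosome. Intervals and the floor of 3 counts cover counting error only. Intervals for the PTGES ratios are exact conditional ones (Clopper-Pearson, scipy 1.17.1). Alternatives were library size alone or the size factors of DESeq2 as scaling, a minimum of 10 counts in every library or no filter, a replicate block, only the groups compared, DESeq2 1.42.0 in place of edgeR, leaving out each library and, added after seeing the data, leaving out genes also listed on an alternate contig, genes with no library past the filter in some group, or PTGES from its branch. Protein sequences were not used here.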

Additional observations from a re-analysis of the deposited data

Results flagged for a closer look

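For 19 of the 24 named eicosanoid genes outside the 10, the difference made by ATRA depended on CDK4/6i, by edgeR's quasi-likelihood test of the interaction with Benjamini-Hochberg adjustment. These 24 were named for a large difference with CDK4/6i+ATRA, which is a term of the interaction, so the 19 is not a share to read. DAGLA and AKR1C3, counted among the 19, were tested through the groups in which they are high. Of all 48 tested genes of the lists, 11 had an interaction above 0 and 20 one below 0 past the threshold, where 24.5% and 27.0% of all 13318 tested genes did. Without the 7 genes that had no library past the filter in some group, it was 10 above and 17 below 0 of 41. Values are on the log2 scale, as the difference with both drugs minus the sum of the single-drug differences. With library size alone their median over all tested genes went from -0.02 to -0.34, so that values above 0 were smaller and those below 0 larger in size, such as 0.26 for COTL1, 0.30 for SLCO3A1, 0.36 for TBXAS1 and -0.49 for PTGES3. Above 0 were EPHX1 at 0.97 ± 0.20 (adjusted p = 7.3e-05), ACSL4 at 0.86 ± 0.06 (adjusted p = 5.4e-18), PLA2G15 at 0.75 ± 0.16 (adjusted p = 0.00013) and TBXAS1 at 0.68 ± 0.14 (adjusted p = 3.6e-05). The same held for SLCO3A1 at 0.61 ± 0.11 (adjusted p = 6.8e-06), COTL1 at 0.58 ± 0.06 (adjusted p = 8.4e-12) and LTB4R at 0.35 ± 0.12 (adjusted p = 0.012). DAGLA was at 3.53 ± 0.98 (adjusted p = 0.0021), a value that rests on 1 to 9 counts per library in 3 of its groups, and its size is not to be read, since the gene was tested through the CDK4/6i+ATRA group alone. The LTB4R value was 0.03 (adjusted p = 0.86) with library size alone, and its call was also lost with no filter and when any 1 of 3 libraries was left out.

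Below 0 were FADS1 at -2.12 ± 0.18 (adjusted p = 2.9e-14), AKR1C3 at -1.58 ± 0.56 (adjusted p = 0.013), FADS2 at -1.55 ± 0.12 (adjusted p = 4.1e-15), HPGD at -0.90 ± 0.15 (adjusted p = 1.3e-06), PTGR2 at -0.89 ± 0.36 (adjusted p = 0.034) and ABCC4 at -0.87 ± 0.08 (adjusted p = 5.8e-13). The call of PTGR2 was lost when any 1 of 6 libraries was left out (-0.70 to -0.86), and that of AKR1C3 without CDK4/6i replicate 2 (-1.28, adjusted p = 0.081). AKR1C3 had 2 to 12 counts per library in the groups without ATRA and was tested through those with it, so that the size of its value is not to be read either. Smaller values below 0 were those of MGST1 at -0.64 ± 0.07 (adjusted p = 8.5e-11), GGT1 at -0.56 ± 0.06 (adjusted p = 2.7e-10), MGST3 at -0.49 ± 0.12 (adjusted p = 0.00029), PTGES2 at -0.47 ± 0.08 (adjusted p = 1.9e-06) and PTGES3 at -0.17 ± 0.05 (adjusted p = 0.0075).

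The ATRA difference of PTGER2 was -0.90 without CDK4/6i and 0.39 with it, with every ATRA library below the non-treated ones and every CDK4/6i+ATRA library above those with CDK4/6i. This difference was not tested, and with library size alone the second pair of groups overlapped.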

How the results depend on the processing

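The counts of other eicosanoid genes called stayed within 1.5 times their value under every alternative in which they were computed. With library size alone the split of calls moved downwards, to 19 higher and 23 lower in place of 22 and 17 with both drugs, and to 9 and 27 in place of 11 and 20 for the interaction. With the replicate block, 22 rose and 17 fell with CDK4/6i+ATRA, and with ATRA 22 rose in place of 21. Same-numbered libraries of different groups did not deviate together (r from -0.07 to 0.03 over 18 pairs), and 1 of 12 libraries correlated best with its own number. Requiring at least 10 counts in every library removed PTGES, PTGER4 and LTC4S, so that of the 10 genes 0 were at least 2-fold lower with ATRA, 0 higher with CDK4/6i and 0 lower with CDK4/6i+ATRA. Leaving out single libraries gave 1 to 2 genes at least 2-fold lower with CDK4/6i+ATRA, 1 without CDK4/6i+ATRA replicate 2, where LTC4S was at -0.87. With library size alone, the branch medians for CDK4/6i+ATRA were 1.69 (prostaglandin) and 1.27 (leukotriene). Leaving PTGES out of the prostaglandin branch, added after seeing the data, moved its median to -0.90 for ATRA and 1.15 for CDK4/6i+ATRA. No called value of a named gene changed direction. Among single genes, the LTB4R interaction lost its call with library size alone (0.03, adjusted p = 0.86), with no filter (0.26, adjusted p = 0.088), and without non-treated replicate 3 (0.22, adjusted p = 0.13), CDK4/6i replicate 1 (0.29, adjusted p = 0.063) or CDK4/6i replicate 2 (0.27, adjusted p = 0.082). That of PTGR2 lost it when any 1 of 6 libraries was left out (-0.70 to -0.86, adjusted p = 0.06 to 0.12). The AKR1C3 interaction, whose call is not to be read, lost it without CDK4/6i replicate 2. Further interactions that passed the threshold under library size alone were those of CBR1 (-0.54, adjusted p = 0.0011), CYP4F3 (-0.56, adjusted p = 0.046) and ABCC1 (-0.53, adjusted p = 0.00047), and that of CBR1 also passed it without CDK4/6i+ATRA replicate 2 (-0.39, adjusted p = 0.015). Genes under about 25 counts per library, such as LTC4S and PTGER4 with ATRA, are limited by depth. The adjusted p-values are those of edgeR's quasi-likelihood test.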
